A study of Mus musculus with 3 samples.

Results

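The Hist1 cluster on mouse chromosome 13 was taken here as 2 blocks of the mm9 genome, a proximal block at chr13:21800000-22139999 (340 kb) and a distal block at chr13:23620000-23859999 (240 kb), with a gap of 1480 kb between them. Its contacts are the Capture Hi-C (CHi-C) di-tags with at least 1 end in either block. They were picked by position, with earlier results of these data known. A di-tag is the sequenced read pair of a molecule in which fragments from 2 places in the genome were ligated. Of 26794867 di-tags in 3 libraries with duplicates removed, 19270 had an end in a block. These were 9131 of 9376907 in Sample 3, 5141 of 8596799 in Sample 4 and 4998 of 8821161 in Sample 5. The blocks span 58 regions of 10 kb, not all of which were covered, and 242198 such regions of the genome held a di-tag end.

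The 3 libraries form a single group, labelled as embryonic stem cells of mouse strain C57BL/6, which are pluripotent cells grown in culture. All were fixed with formaldehyde, digested with HindIII and ligated, and no treatment, genotype change or second condition sets them apart. The source label of Sample 3 names foetal liver cells instead, against its own cell type label. The paper lists Samples 3, 4 and 5 alike as mouse embryonic stem cells. The main ratios are given with and without Sample 3. Nothing in the labels says whether the libraries came from separate cultures, and the lists hold no expression by which a cell type could be checked. In Sample 3, 48.0% of all di-tags joined places on the same chromosome (cis), against 32.6% in Sample 4 and 28.4% in Sample 5. The proximal block drew 0.589%, 0.347% and 0.322% of all chromosome 13 ends in Samples 3, 4 and 5, and the distal block 0.760%, 0.436% and 0.407%. Sample 3 thus stands apart from both others in its cis share and in its coverage of both blocks.

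Core histones H2A, H2B, H3 and H4 form the nucleosome, around which DNA is wound, and linker histone H1 binds where the DNA enters and leaves it. Most Hist1 genes encode the forms made in bulk while DNA is being copied. Their messages lack a poly(A) tail and end in a stem-loop, and they are transcribed and processed in nuclear structures called histone locus bodies, which gather around histone genes and contain the protein NPAT. In the RefSeq gene table, whose build is GRCm38.p6 and not mm9, 55 genes of chromosome 13 carry a Hist1 name. By neighbour order 24 of them lie before an array of vomeronasal receptor genes and 31 after it. The first group holds 1 H1 gene, H1f5, with 8 H2A, 8 H2B, 2 H3 and 5 H4 genes. The second group holds 5 H1, 6 H2A, 7 H2B, 7 H3 and 6 H4 genes, among them H1f1 to H1f4 and, at its far end, H2bc1 and H2ac1. Between the groups the table lists 147 other genes, of which 75 are vomeronasal receptor genes or pseudogenes (Vmn1r) and 46 are tRNA genes. The first group is itself interrupted: 19 histone genes from H2bc13 onwards are followed by 39 other genes, 31 of them tRNA genes and 3 of them protein-coding (Zfp184, Pom121l2 and Prss16), and then by the last 5 histone genes, H2ac12, H2bc12, H4c9, H2ac11 and H2bc11. No gene table of mm9 was used here, so no gene is assigned to a region of 10 kb.

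RefSeq promoter sequences matched 51 of the 55 genes. A few are shown for what genes of both groups have in common in sequence, although the contacts were counted per region and not per promoter. The 250 bases before the start were searched on both strands for TATAAA (the TATA box), CCAAT, ATTTGCAT (the octamer of H2B promoters), AAACACA (an element of H1 promoters) and AAGCTT, the site at which HindIII cuts. CCAAT was present in 43 of 51 Hist1 promoters (84.3%, against 34.5% of all 27025 promoters), in all H1, H2A, H2B and H3 promoters but in only 3 of 11 H4 promoters. TATAAA was present in 26 (51.0%, against 12.97%) and ATTTGCAT in 10 (19.6%, against 1.61%), 5 of them H2A and 5 of them H2B. AAACACA was found in 5 of 6 H1 promoters and in 9 of all 51 (17.6%, against 6.22%). A HindIII site lay in 6 of 51 (11.8%, against 6.16%). Where the searched bases of neighbouring genes overlap, as for H2ac13 and H2bc13 below, a site counts for both genes. A match shows the letters only and not a bound factor. The 130 bases before the start of the first listed gene of each family, and of H1 and H2B also in the second group, read 5′ to 3′ with the matches on either strand in capitals (ATTGG is CCAAT on the other strand).
H1f5: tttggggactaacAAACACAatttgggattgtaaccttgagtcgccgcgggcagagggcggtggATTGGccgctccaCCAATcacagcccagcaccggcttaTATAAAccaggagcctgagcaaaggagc
H1f3: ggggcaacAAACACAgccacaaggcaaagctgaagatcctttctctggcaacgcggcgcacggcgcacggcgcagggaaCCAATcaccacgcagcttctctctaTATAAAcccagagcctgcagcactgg
H2ac13: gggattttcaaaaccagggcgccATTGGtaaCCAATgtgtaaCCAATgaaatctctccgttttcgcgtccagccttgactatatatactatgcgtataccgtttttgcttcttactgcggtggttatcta
H2bc13: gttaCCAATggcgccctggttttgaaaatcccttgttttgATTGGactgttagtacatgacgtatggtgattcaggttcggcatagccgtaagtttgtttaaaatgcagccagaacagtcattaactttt
H2bc9: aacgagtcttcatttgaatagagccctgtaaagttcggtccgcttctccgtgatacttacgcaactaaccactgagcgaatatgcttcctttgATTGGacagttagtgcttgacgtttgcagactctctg
H3c10: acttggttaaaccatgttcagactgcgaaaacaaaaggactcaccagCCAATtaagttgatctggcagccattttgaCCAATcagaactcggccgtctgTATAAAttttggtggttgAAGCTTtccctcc
H4c11: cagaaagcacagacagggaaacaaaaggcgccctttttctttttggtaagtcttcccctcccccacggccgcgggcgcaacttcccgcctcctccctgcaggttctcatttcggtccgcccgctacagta
In GRCm38.p6 these stretches lie at chr13:21780626-21780755, minus strand (H1f5), chr13:23554902-23555031, plus strand (H1f3), chr13:21716282-21716411, plus strand (H2ac13), chr13:21716184-21716313, minus strand (H2bc13), chr13:23543445-23543574, minus strand (H2bc9), chr13:21717498-21717627, plus strand (H3c10) and chr13:21734904-21735033, plus strand (H4c11). H1f5 and H1f3, from different groups, both hold an AAACACA farther from the start than a CCAAT and a TATA box. H2ac13 and H2bc13 are transcribed away from each other and their stretches overlap, so that the ATTGG of the former is the first CCAAT of the latter. The H4c11 stretch held none of the 5 motifs.

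Coverage within the blocks was uneven. In the proximal block 31 of 34 regions held an end in each library, with a median of 90.5, 44 and 51 ends per region in Samples 3, 4 and 5, against 45, 49 and 52 over chromosome 13. The distal block had medians of 207, 103.5 and 105.5, and 20 or 21 of its 24 regions were covered. Whether a region was called highly covered in a library was set by the other libraries alone. Each of them had to have it among its 10% of regions with the most ends, as captured fragments would be. The bait design was not used here. By this measure 6 of 34 proximal regions and 9 or 10 of 24 distal regions were highly covered, against 6.77%, 6.10% and 6.09% of the regions of chromosome 13 in Samples 3, 4 and 5. They held 46.3% to 47.8% of proximal ends and 66.3% to 73.9% of distal ends. Ranked by their lowest count of ends over the libraries, the leading proximal regions were those starting at 22100000 (441, 273 and 245 ends in Samples 3, 4 and 5), 22090000 (295, 212 and 219) and 21800000 (436, 218 and 184). By the same ranking the leading distal regions started at 23780000 (580, 397 and 352), 23640000 (583, 259 and 271) and 23820000 (492, 273 and 250). Histone genes of a family are alike in sequence and only uniquely aligned reads were kept, so contacts of identical stretches are missing.

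Most di-tags with an end in a block had the other end on another chromosome. From the proximal block the trans share was 52.0% in Sample 3 (95% Clopper-Pearson interval 50.4% to 53.5%), 71.3% in Sample 4 (69.3% to 73.1%) and 75.7% in Sample 5 (73.8% to 77.4%), and from the distal block it was 55.2%, 75.7% and 75.8%. These intervals treat the di-tags of a library as independent and cover counting error only, not differences between libraries. The di-tags also carry no molecular identifiers. The share that stayed in the same block was 11.1% ± 1.29 (SD, n = 3 libraries) for the proximal block and 11.7% ± 1.11 for the distal block. The other block, 1480 kb away, received 5.80%, 1.54% and 1.60% of proximal di-tags in Samples 3, 4 and 5, a mean of 2.98% ± 2.44. It received 4.55%, 1.21% and 1.29% of distal di-tags, a mean of 2.35% ± 1.91. Without Sample 3 these means were 1.57% and 1.25%. Sample 3 lies well above the others in this share, which does not correct for its deeper coverage of both blocks and its higher cis share. The whole gap, several times as long as either block, received 3.28%, 3.47% and 2.05% of proximal and 4.59%, 1.93% and 1.54% of distal di-tags.

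**Figure D1:**
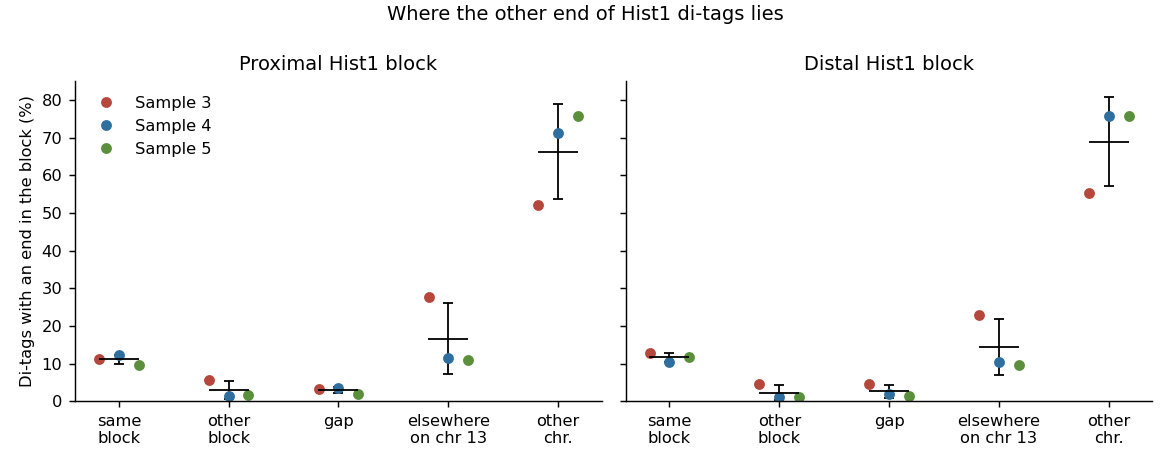
Percent of di-tags with an end in the proximal (left) or distal (right) Hist1 block by the place of the other end, with a point per library and the mean and SD over 3 libraries as bars. The trans share of Sample 3 (52.0% and 55.2%) lies below that of the other libraries, and the share reaching the other block (5.80% and 4.55%) lies above.

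The question of whether the blocks meet more often than their distance and coverage would give was addressed with an expected count per pair of 10 kb regions. It is the product of the ends in both regions times a rate for their distance and for whether neither, either or both were highly covered, estimated on chromosome 13 from pairs with no end in a block. Between the blocks 239 di-tags were observed in Sample 3 against 40.1 expected, 35 against 5.66 in Sample 4 and 36 against 4.44 in Sample 5. Observed over expected was therefore 5.96 (95% Poisson interval 5.23 to 6.77), 6.18 (4.31 to 8.60) and 8.12 (5.68 to 11.2). The 3 intervals overlap, although the numbers of di-tags differ greatly. The mean was 6.75 ± 1.18 (SD, n = 3 libraries), and 7.15 ± 1.37 without Sample 3. In the latter, Sample 3 still helped to set the highly covered regions of Samples 4 and 5. With the blocks shortened by 20 kb at both ends the mean was 4.40 ± 0.428. The ratio was above 1 in 3 of 3 libraries (log2 ratios in an exact two-sided permutation of their signs, p = 0.25, the smallest that 3 libraries allow; 0.5 without Sample 3).

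The same pair of windows was then moved along chromosome 13 in steps of 20 kb, and positions were kept where both windows lay off the blocks and had coverage within a factor of 2 of theirs. There were 251 such window pairs in Sample 3, 1862 in Sample 4 and 2244 in Sample 5. They overlap heavily. With the gap between the windows counted as part of each pair, at most 15, 42 and 47 were free of overlap. Their median observed over expected was 0.862, 0.853 and 0.815 and their highest value 1.82, 6.11 and 5.90, so 0 of them reached the value of the Hist1 blocks in any library. In Sample 4 the highest of them came close to the 6.18 of the blocks. When the windows also had to hold as many highly covered regions, give or take 2, only 18, 5 and 18 were left, with highest values of 1.31, 0.669 and 2.27. The ratio between the blocks was also taken by whether the regions were highly covered. In Sample 3 it was 9.88 where both were (67 di-tags), 4.56 where either was (121) and 7.57 where neither was (51). In Sample 4 these values were 7.42, 6.51 and 3.36, the last from 3 di-tags with a 95% Poisson interval of 0.692 to 9.81, which includes 1. In Sample 5 they were 6.83, 8.69 and 7.97.

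**Figure D2:**
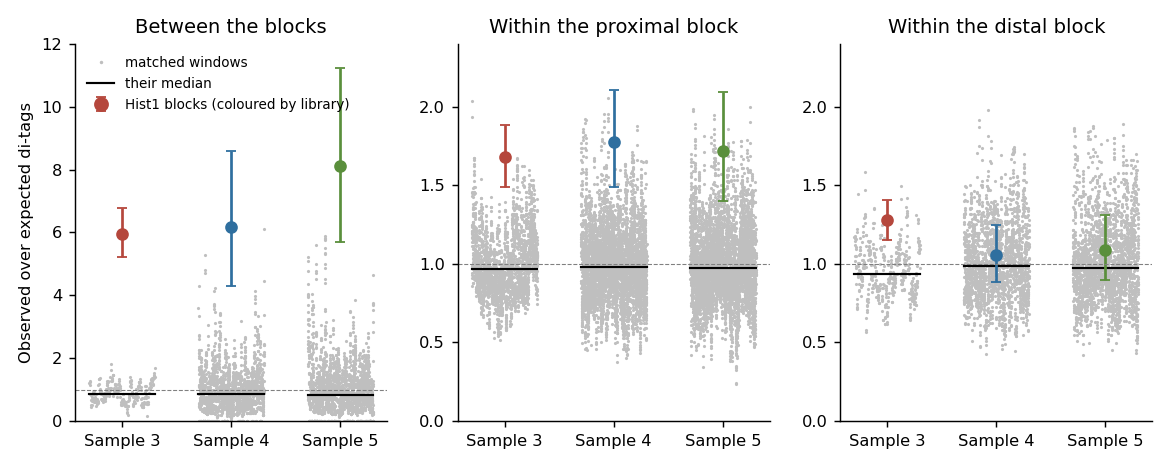
Observed over expected di-tags (linear axis) between the Hist1 blocks and within each block, per library, as coloured points with 95% Poisson intervals, over windows of the same size and like coverage on chromosome 13 (grey, spread sideways in chromosome order; black line, median). Between the blocks the values 5.96, 6.18 and 8.12 lie above all grey points; within the proximal block they lie near the top of the grey points, and within the distal block 1.05 and 1.09 lie among them.

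Windows at the same distance on the other side of each block showed no such excess. The window as far from the proximal block on its other side as the distal block received 16, 3 and 1 di-tags in Samples 3, 4 and 5, which is 1.36, 1.12 and 0.477 times the expected count. From the distal block, the window on its other side received 5, 1 and 3 di-tags, or 0.273, 0.186 and 0.691 times the expected count. Summed over libraries, the 20 di-tags of the former were 1.21 times and the 9 of the latter 0.321 times the expected count. These mirror windows had fewer ends than the blocks (1633 against 5921 in Sample 3 on the proximal side), and few di-tags stand behind each value.

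The contacts of each block were then followed along the chromosome, in 4 equal parts of the gap and in windows of 100 kb. The gap received from the proximal block 0.269 ± 0.089 times the expected count in the part next to that block (mean and SD, n = 3 libraries), and 0.353 ± 0.128 and 0.488 ± 0.180 in the following parts. At the same distances on the outer side of the proximal block the means were 0.368 to 1.07, with SDs of 0.158 to 0.278. From the distal block, the 4 parts of the gap received on average 0.248 to 0.595 times the expected count and the matched parts on its outer side 0.335 to 0.624, so that values below 1 were not particular to the gap. The last part, next to the distal block, received 80, 52 and 30 di-tags in Samples 3, 4 and 5, or 2.61, 7.05 and 5.29 times the expected count. The rise thus began before the edge of the distal block. At 1200 to 1300 kb from the proximal block the ratios were 3.17, 3.73 and 2.92, from only 13, 5 and 3 di-tags, and single windows of such depth also exceeded 1 elsewhere (4.35 from 5 di-tags in Sample 4, at 2350 kb from the distal block, beyond the proximal block). The ratios were 2.43, 9.29 and 8.06 at 1300 to 1400 kb from 22, 22 and 14 di-tags and 2.99, 9.91 and 6.42 at 1400 to 1500 kb. They were 5.64, 8.93 and 11.3 at 1500 to 1600 kb and 5.11, 3.49 and 5.06 at 1600 to 1700 kb. They were still 4.71, 2.97 and 2.48 at 1700 to 1800 kb, a window that begins with the last 20 kb of the distal block. Those 20 kb held 54 of its 82, 4 of its 9 and 4 of its 6 di-tags. The ratios fell to 1.25, 0 and 1.21 at 1800 to 1900 kb. The highest window was at 1500 to 1600 kb in Samples 3 and 5 and at 1400 to 1500 kb in Sample 4, in which the last part of the gap, at 7.05 from 52 di-tags, was also above the distal block itself, at 6.18 from 35. From the distal block, no such shoulder was seen in the gap: the part next to the proximal block received 15, 4 and 6 di-tags, 0.517, 0.441 and 0.826 times the expected count. The contacts of the distal block peaked instead near both ends of the proximal block, with 6.48, 7.30 and 12.6 at 1400 to 1500 kb and 10.4, 10.7 and 8.23 at 1700 to 1800 kb. Between these peaks the values were 1.91 to 4.53, lower than at either peak in each library.

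**Figure D3:**
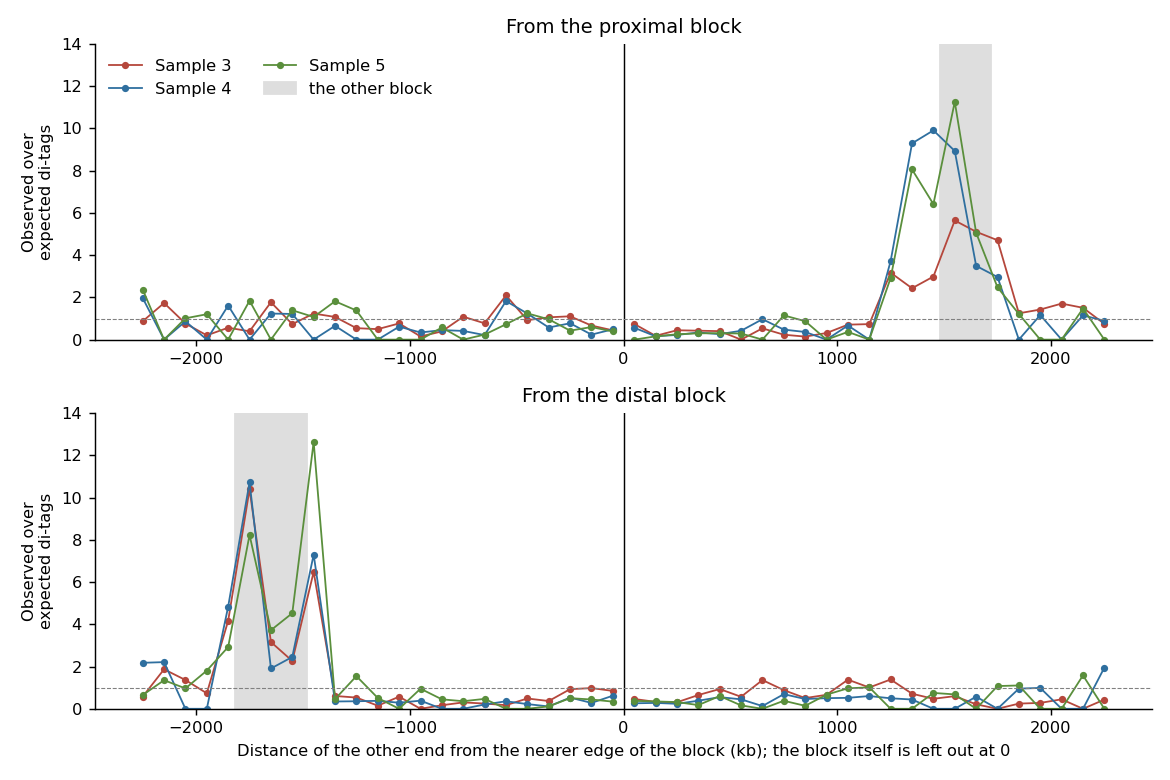
Observed over expected di-tags in windows of 100 kb against the distance of the window from the nearer edge of the proximal (top) or distal (bottom) Hist1 block, a line per library, with the other block shaded and the dashed line at 1. From the proximal block the values rise before the shaded block (2.43, 9.29 and 8.06 at 1350 kb); from the distal block there are peaks at -1450 and -1750 kb.

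Along the proximal block, contacts with the distal block were divided into 3 stretches, whose limits were chosen after the values were seen and which are therefore described without a test. The first 120 kb had 128, 18 and 12 di-tags to the distal block in Samples 3, 4 and 5, which is 9.83, 11.9 and 9.66 times the expected count (mean 10.5 ± 1.24, n = 3). The next 200 kb had 51, 8 and 12 di-tags, or 2.52, 2.29 and 4.29 times the expected count (mean 3.03 ± 1.098). The last 20 kb had 60, 9 and 12 di-tags, 8.84, 13.8 and 30.0 times the expected count (mean 17.6 ± 11.1), the last value resting on an expected count of 0.399. The middle stretch was the lowest of the 3 in each library. Parts of 20 kb varied within the stretches. In Sample 5 the part from 260 kb, in the middle stretch, had 12.7 from 5 di-tags. The parts from 20 and 40 kb, in the first stretch, had 6.71 and 5.87 there, from 1 di-tag each. In the gene table the first group of histone genes is interrupted by other genes; whether the middle stretch is that interruption was not tested, since the table is of another build.

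Along the distal block, divided at limits that were likewise chosen after the values were seen, the first 80 kb received 5.65, 10.1 and 12.1 times the expected count from the proximal block in Samples 3, 4 and 5, from 91, 21 and 21 di-tags, and the last 40 kb 9.36, 5.01 and 9.61 times from 95, 5 and 7. The 120 kb between them received 3.84, 3.48 and 4.05 times the expected count from 53, 9 and 8 di-tags. In Sample 4 the 95% Poisson intervals of this stretch (1.59 to 6.61) and of the last 40 kb (1.63 to 11.7) overlap widely. In parts of 20 kb summed over the libraries, the part from 140 kb, in the middle stretch, had 6.35 and the parts from 0 and 60 kb, at the near end, 4.57 and 4.12. The part from 80 to 100 kb held 0 ends in all libraries. In parts of 20 kb summed over the libraries, the far edge of the distal block had a ratio of 10.4 from 62 di-tags, of which 54 came from Sample 3. That part was the highest of the distal block in Sample 3 (10.3), whereas in Samples 4 and 5 the part from 40 kb was higher, at 25.3 (14 di-tags) and 19.2 (10) against 8.81 and 13.03 (4 each) at the far edge. Summed over the libraries, the part with the most ends (2278, from 160 kb) had 4.46.

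**Figure D4:**
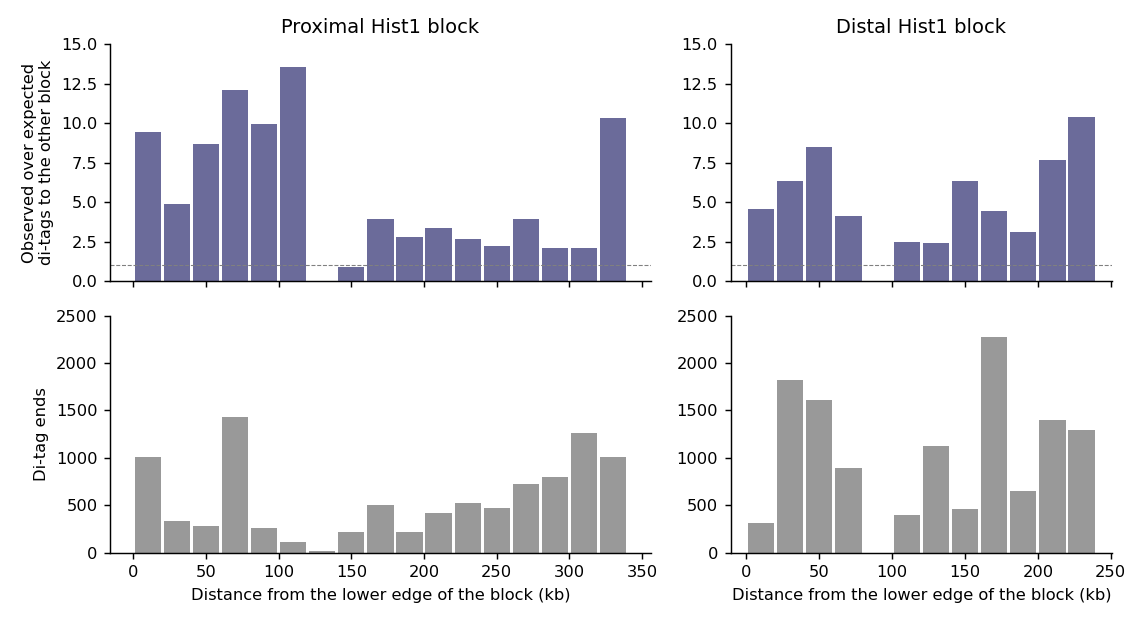
Contacts along the Hist1 blocks in parts of 20 kb, summed over 3 libraries: observed over expected di-tags to the other block (top, dashed line at 1) and number of di-tag ends (bottom), against the distance from the lower edge of the block in kb. The ratio is high in the first 120 kb and last 20 kb (10.3) of the proximal block. In the distal block it is highest at the far edge (10.4), where 54 of 62 di-tags are from Sample 3. The distal part with the most ends (2278) has 4.46. Of all 310 di-tags, 239 are from Sample 3.

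**Figure D5:**
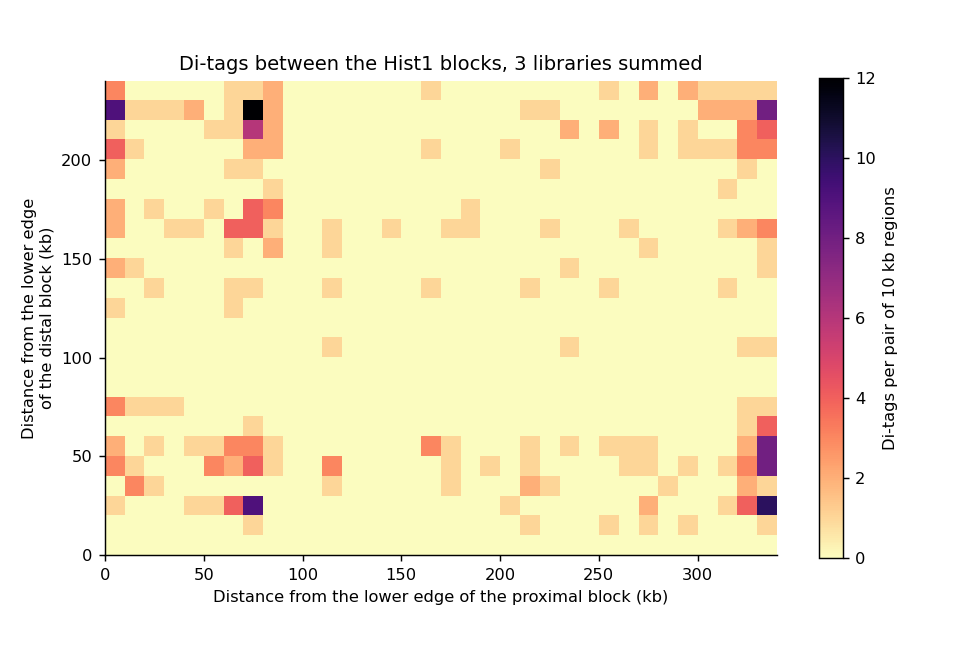
Number of di-tags (colour) between each pair of 10 kb regions of the proximal (horizontal) and distal (vertical) Hist1 block, summed over 3 libraries, against distance from the lower edge of each block in kb. The highest count, 12, joins the regions at 70 kb and 220 kb (11, 1 and 0 in Samples 3, 4 and 5). The middle of the proximal block (120 to 320 kb) holds 71 of the 310 di-tags. Sample 3 supplied 239 of the 310 and 51 of the 71.

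Single region pairs carried few di-tags. Of the 816 region pairs between the blocks, 137 held a di-tag in Sample 3 and 33 in each of Samples 4 and 5, and the largest pair held 11, 2 and 3. An exact upper-tail Poisson test of each count against its expected value was run over all covered pairs of chromosome 13 regions that lay 20 kb to 3 Mb apart, with Benjamini-Hochberg adjustment and a minimum of 2 di-tags. It called 13 of 3068768 pairs in Sample 3 (0.000424%), 2 of 3093178 in Sample 4 (6.47e-05%) and 5 of 3092961 in Sample 5 (0.000162%). Between the blocks 5 of 620 covered pairs were called in Sample 3 and 0 of 651 in Samples 4 and 5, where 33 pairs each had an unadjusted Poisson p under 0.05 (66 in Sample 3). In Samples 4 and 5 these 33 are all the pairs that held a di-tag, so this count only restates that number. Over all covered pairs of the chromosome 24019, 20692 and 18782 pairs had such a p in Samples 3, 4 and 5. No pair was called in at least 2 libraries, so no pair met the rule for naming, and those given here were chosen after their values were seen.

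The called pair with the most di-tags joined 21870000-21879999 with 23840000-23849999, with 11 di-tags against 0.164 expected in Sample 3 (exact Poisson test, adjusted p = 1.55e-10) and 1 and 0 di-tags in Samples 4 and 5. Region 21870000-21879999 also met 23640000-23649999 with 9 di-tags (exact Poisson test, adjusted p = 1.30e-06) and 23830000-23839999 with 6 (adjusted p = 0.0151) in Sample 3, and neither pair had a di-tag in the other libraries. The remaining calls joined 23840000-23849999 to 21800000-21809999 (7 di-tags, exact Poisson test, adjusted p = 0.00129) and to 22130000-22139999 (8 di-tags, adjusted p = 0.00129). The former had 2 and 0 di-tags in Samples 4 and 5 (0.0159 expected in Sample 4), and the latter had 0 in both. In Sample 3 the called pairs between the blocks thus share 21870000 and 23840000 as the regions that recur. Only 5 of 816 pairs had a di-tag in all 3 libraries. Among these, 22130000-22139999 met 23640000-23649999 with 6, 1 and 3 di-tags against 0.409, 0.0309 and 0.0206 expected. The same proximal region met 23660000-23669999 with 5, 2 and 1 di-tags.

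Within the blocks observed over expected was smaller than between them, at shorter distances and with larger expected counts. For regions at least 20 kb apart within the proximal block, 293, 133 and 99 di-tags were observed against 174.5, 74.8 and 57.5 expected, a ratio of 1.68, 1.78 and 1.72 in Samples 3, 4 and 5 (mean 1.73 ± 0.05, n = 3; 1.75 ± 0.04 without Sample 3). Windows of the same length and like coverage reached that ratio in 2 of 2416, 23 of 4769 and 32 of 5085 positions. Within the distal block 390, 132 and 110 di-tags gave 1.28, 1.05 and 1.09 (mean 1.14 ± 0.12; 1.07 ± 0.02 without Sample 3). Here 4.70% of matched windows in Sample 3, 38.0% in Sample 4 and 31.7% in Sample 5 had at least that ratio, so the distal block is not set apart in Samples 4 and 5. With as many highly covered regions, give or take 2, it was 0 of 153, 15 of 90 and 30 of 139 windows. For the proximal block it was then 2 of 1010, 0 of 873 and 3 of 864. The matched windows overlap heavily. At most 171, 299 and 318 proximal and 55, 217 and 266 distal ones were free of overlap. The sign-flip test gave p = 0.25 for each block (exact permutation test, two-sided), the smallest possible.

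A single pair was called within each block, both in Sample 3. In the proximal block 21800000-21809999 met 21870000-21879999 with 21, 7 and 4 di-tags in Samples 3, 4 and 5 against 2.24, 0.548 and 0.307 expected (exact Poisson test, adjusted p = 7.85e-08 in Sample 3). Both regions also appear among the called pairs with the distal block. In the distal block 23790000-23799999 met 23820000-23829999 with 24, 8 and 6 di-tags against 5.71, 3.20 and 1.53 expected (exact Poisson test, adjusted p = 0.00337 in Sample 3). The direction was the same in all 3 libraries for both pairs, but neither passed the test in Samples 4 and 5.

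Copies of each di-tag were counted in the deposited lists that keep them. There a di-tag between the blocks had a median of 7, 4 and 8.5 copies in Samples 3, 4 and 5. The median was 7, 5 and 4 within the proximal block, 6.5, 4 and 4 within the distal block and 5, 4 and 3 in trans. For contacts elsewhere on chromosome 13 the median was 6, 5 and 4, which in Sample 4 is above the 4 between the blocks. The values for contacts between the blocks lie at or above those in trans in each library, and the highest, 8.5, is that of Sample 5. The 4 combinations of read strands between the blocks were all present, with 53 to 70 di-tags each in Sample 3, 6 to 12 in Sample 4 and 5 to 12 in Sample 5. No di-tag between the blocks was found at the same positions and strands in a pair of libraries, and over all block di-tags 1 was, in Samples 3 and 5.

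The share of trans di-tags was set beside windows of chromosome 13 of the same length and like coverage. For the proximal block it was 52.0%, 71.3% and 75.7% against medians of 56.2%, 75.7% and 79.6%, and 20.1%, 13.3% and 14.7% of the windows had a share as low. For the distal block it was 55.2%, 75.7% and 75.8% against medians of 51.6%, 72.0% and 76.3%. Neither block lay outside the middle 95% of these windows in any library.

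Windows of 1 Mb on the other chromosomes were tested for an excess of Hist1 di-tags over their share of all trans ends off chromosome 13 (exact upper-tail Poisson test, Benjamini-Hochberg adjustment over 2467 windows). In Sample 3, 28 windows were called (1.13%), and in Samples 4 and 5 0 (0%), with 62 and 63 windows at an unadjusted p under 0.05 there against 144 in Sample 3. The lowest adjusted p was 0.000331 in Sample 3 and 1 in both others. The windows called in Sample 3 held 406 Hist1 di-tags against 114.2 expected there, a ratio that the call itself fixed. In the other libraries, which the call did not use, they held 76 against 76.1 in Sample 4, a ratio of 0.999 (95% Poisson interval 0.787 to 1.25), and 78 against 72.9 in Sample 5, a ratio of 1.07 (0.845 to 1.33). Trans di-tags from the rest of chromosome 13 gave observed over expected values of 1.09, 1.03 and 1.05 in them.

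By the exact Poisson test the windows of Sample 3 with the lowest adjusted p were 32000000-32999999 on chromosome 11 (17 di-tags against 3.42 expected, adjusted p = 0.000331), 35000000-35999999 on chromosome 5 (17 against 3.62, adjusted p = 0.000364) and 96000000-96999999 on chromosome 3 (18 against 4.24, adjusted p = 0.000466). The last had 6 di-tags against 2.80 expected in Sample 4 and 0 against 2.67 in Sample 5. Ranked on their largest adjusted p over the libraries, all windows were tied at 1. The tie was broken by the largest unadjusted p, an order that itself favours windows above the expected count in each library, and the first 3 are given as a description. They were 39000000-39999999 on chromosome 17 (5, 3 and 4 di-tags against 1.14, 0.897 and 0.907 expected), 17000000-17999999 on chromosome 7 (7, 4 and 4 against 2.91, 1.79 and 1.69) and 20000000-20999999 on chromosome 11 (7, 4 and 5 against 2.56, 1.85 and 1.89). None of them was called in any library. Histone genes outside Hist1 lie on other chromosomes, and without a gene table of mm9 none was placed in a window.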

How the data were processed

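CHi-C di-tags of Samples 3, 4 and 5 were analysed from the lists that the authors deposited, of which the de-duplicated lists are the main input. The values deposited by the authors are positions, a line per di-tag with chromosome, position and strand of both reads; lines were counted. Before deposition the authors cut reads at the ligation junction, aligned the reads of a pair separately, kept unique alignments, and removed artefacts and duplicates with HiCUP. The submitters' processing notes name Bowtie 1.1.0 and mm9. The protocol label breaks off at sonication, and the sources used here do not give the baits.

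Di-tags were counted per 10 kb region with Python 3.11.15, numpy 2.4.6 and scipy 1.17.1. Region pairs under 20 kb apart were left out. Distance bands were about 10% wide and reached 3 Mb. Calls needed an adjusted p under 0.05. Each library was analysed on its own, except that its highly covered regions were set by the other libraries. Where a library was left out, its values were dropped, but it still helped to set those regions for the others. The test treats di-tags as independent observations. The code was tested on simulated data. The members, regions and motifs were chosen with earlier results of these data known. Alternatives changed the region size, coverage measure, background, duplicates, strands, block edges, thresholds and libraries. Regions were to be named by their lowest count of ends over the libraries, pairs by their lowest count among those called in at least 2 libraries, and trans windows by their largest adjusted p, with ties broken by the largest unadjusted p.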

Additional observations from a re-analysis of the deposited data

How the results depend on the processing

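The excess between the blocks kept its direction under each alternative tried. Its mean moved from 6.75 by more than the SD over libraries with rates from all autosomes (8.04), with both reads on the plus strand (5.09) and with the blocks shortened by 20 kb at both ends (4.40), where the lost regions include several of those with the most contacts. Leaving out each library in turn gave 6.07 to 7.15, and the within-block ratios then ranged from 1.70 to 1.75 (proximal) and 1.07 to 1.18 (distal). The within-proximal ratio was 1.79 with 20 kb regions, 1.96 with trans ends as coverage, 1.80 without the class of highly covered regions, 1.84 with autosomal rates and 1.64 with duplicates retained, and the within-distal ratio was 1.26 with 20 kb regions.

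Matched windows at or above the blocks' own ratio rose from 0% on average to 0.0179% with 20 kb regions, 0.0358% without that class and 1.28% on the plus strand. On the plus strand Sample 5 had 3.68% and Sample 4 0.163%, and the ratio of Sample 5 was 4.04 from 5 di-tags, against 8.12 from 36. For the proximal block the percentage rose from 0.398% to 0.786% with 20 kb regions, 4.29% with duplicates retained and 3.002% on the plus strand. For the distal block in Sample 3 it was 4.70%, against 0.758% with duplicates retained and 13.4% with trans ends as coverage. On the plus strand the share staying in the block was 12.9% (proximal) and 13.7% (distal). The share reaching the other block rests on Sample 3: without it the means were 1.57% (proximal) and 1.25% (distal), and at most 3.70% and 2.92% without either other library. Without each library in turn, the ratio of the other block to the mirror window ranged from 4.56 to 8.396 (proximal) and 17.1 to 23.7 (distal), the highest proximal value being without Sample 3, against 5.12 with all libraries.

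Calls depended most on duplicates. With duplicates retained, 86, 20 and 27 pairs between the blocks were called in Samples 3, 4 and 5 and 507, 468 and 502 trans windows. The same setting called 18184, 11935 and 10257 pairs over chromosome 13, against 13, 2 and 5 with duplicates removed. With duplicates retained, 16 pairs between the blocks, 22 within the proximal and 13 within the distal block were called in at least 2 libraries, against 0 with duplicates removed. Each copy counts as a di-tag where duplicates are retained. How many pairs of the whole chromosome were then called in at least 2 libraries was not counted, so these numbers have no background beside them. In Sample 3, 20 kb regions and trans coverage each gave 10 pairs between the blocks and the plus strand 0. Over chromosome 13 these settings called 19, 25 and 1 pairs in that library. In Sample 5, 20 kb regions gave 1 pair between the blocks, of 5 called over chromosome 13. With 20 kb regions 1 pair between the blocks was called in at least 2 libraries, again without a background. Trans windows in Sample 3 fell to 16 at 500 kb and to 12 at an adjusted p under 0.01. The cause of these shifts was not tested. No paired analysis was possible because the libraries form a single group. Samples 4 and 5 hold only 35 and 36 di-tags between the blocks, and which differences along the blocks that depth could show was not tested.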
